A study of Rattus norvegicus with 6 samples.

Results

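Genes of DNA replication and mitosis were examined in sorted cells described as neuroepithelial progenitors, from rat (Rattus norvegicus) embryos at E10.5. Such progenitors divide to build the neural tube. Of 36 cell cycle genes named by symbol, 33 had a row in the array table, out of 19634 gene symbols tested. Rrm1, E2f2 and Birc5 were not analysed here. The genes were listed by name, with earlier results of these data known, and the rule used measured values only to choose between rows. The row of highest mean stood for a gene with several rows. By textbook phase, 16 of the measured genes act in G1 and S phase and 17 in G2 and M phase.

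The array study set 3 pools of cells from dams given all-trans retinoic acid by gavage at 60 mg/kg in olive oil against 3 pools from dams given the oil alone. Both groups were sorted by flow and each sample was a pool of biological replicates, of unstated size. Strain, sorting gate and the time from dosing to collection are likewise unstated in the labels. Each control carried ERCC ExFold spike-in RNA mix 1 and each retinoic acid sample mix 2, so the mix differs between the groups.

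Cells that divide license their replication origins in G1 by loading the MCM helicase, start to copy DNA when cyclin E and Cdk2 and the E2F transcription factors become active, and enter mitosis when cyclin B and Cdk1 do. E2F factors raise many S phase genes at the G1 to S boundary. Many genes of G2 and M are held down earlier in the cycle through a promoter element called the cell cycle genes homology region (CHR), which often lies next to CCAAT boxes. In the neural tube at this stage the progenitors cycle fast, and their nuclei move between the outer side, where DNA is copied, and the lumen, where cells divide.

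Values are log2 expression as normalized by the authors, so a difference of 1 is a doubling. A gene was called at an adjusted p under 0.05 in limma, which was fitted to 20258 rows. Of the cell cycle genes, 6 rose (18.2%): Pcna, Mcm7, Mcm5, Mcm2 and Rrm2 of S phase and Cdk1 of G2 and M. For comparison, 7.69% of tested rows were called higher, and 16.1% of the 6639 rows with a mean level between 7.72 and 11.78, the range of these genes. The share among the cell cycle genes was therefore near that of rows in this range, whose median difference was 0.08. Calls among rows matched to the level of each gene were not counted. No cell cycle gene was called lower in limma or in the authors' deposited table, against 2.06% of tested rows in limma and 2.35% of those in the same range of level. At an unadjusted p under 0.05, 15 genes were higher and 1, Ccnd1, was lower, against 16.5% and 5.53% of tested rows. In pools of cells, fewer cells of a type and less RNA per cell cannot be told apart.

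The promoters of the genes that were called are shown because the elements named above are known to differ between genes of the phases. Promoters of RefSeq (build GRCr8, 250 bases before to 50 bases after the start site) were at hand for 26 of the 33 genes, and Rrm2 had none in that set. The search covered both strands for E2F forms TTTCCCGC, TTTGGCGC, TTTCGCGC and TTTGCCGC, for the CHR letters TTTGAA and for CCAAT. Capitals mark every match, which reads in reverse complement (ATTGG for CCAAT, for example) where it lies on the other strand, and adjoining matches can overlap. Ccnb2, which was not called in the row kept for it, is added as a promoter of the G2 and M kind.
Pcna, chr3:139955771-139956070, minus strand: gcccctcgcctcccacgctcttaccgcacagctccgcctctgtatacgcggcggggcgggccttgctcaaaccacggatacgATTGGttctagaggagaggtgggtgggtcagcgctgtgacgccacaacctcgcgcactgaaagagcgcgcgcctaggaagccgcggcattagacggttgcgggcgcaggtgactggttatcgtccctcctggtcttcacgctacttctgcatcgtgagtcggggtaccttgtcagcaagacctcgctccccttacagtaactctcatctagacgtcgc
Mcm2, chr4:122918045-122918344, minus strand: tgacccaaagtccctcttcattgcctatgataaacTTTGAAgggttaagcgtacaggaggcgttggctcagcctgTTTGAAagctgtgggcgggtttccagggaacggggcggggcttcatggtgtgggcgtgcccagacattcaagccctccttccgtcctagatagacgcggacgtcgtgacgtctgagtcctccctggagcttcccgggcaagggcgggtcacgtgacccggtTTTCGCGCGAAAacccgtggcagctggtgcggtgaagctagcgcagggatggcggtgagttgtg
Mcm5, chr19:13488563-13488862, plus strand: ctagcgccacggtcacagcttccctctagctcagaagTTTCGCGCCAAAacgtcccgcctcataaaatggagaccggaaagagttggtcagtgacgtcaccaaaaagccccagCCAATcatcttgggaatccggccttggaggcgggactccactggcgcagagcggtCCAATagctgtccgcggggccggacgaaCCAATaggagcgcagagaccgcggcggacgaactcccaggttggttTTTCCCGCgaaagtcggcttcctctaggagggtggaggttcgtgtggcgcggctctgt
Mcm7, chr12:22163129-22163428, minus strand: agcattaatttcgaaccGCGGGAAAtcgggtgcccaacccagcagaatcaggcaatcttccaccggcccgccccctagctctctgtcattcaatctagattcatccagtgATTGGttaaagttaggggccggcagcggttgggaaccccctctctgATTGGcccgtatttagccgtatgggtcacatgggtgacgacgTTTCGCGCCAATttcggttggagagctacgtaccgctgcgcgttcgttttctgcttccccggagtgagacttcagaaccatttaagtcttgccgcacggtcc
Cdk1, chr20:19265043-19265342, plus strand: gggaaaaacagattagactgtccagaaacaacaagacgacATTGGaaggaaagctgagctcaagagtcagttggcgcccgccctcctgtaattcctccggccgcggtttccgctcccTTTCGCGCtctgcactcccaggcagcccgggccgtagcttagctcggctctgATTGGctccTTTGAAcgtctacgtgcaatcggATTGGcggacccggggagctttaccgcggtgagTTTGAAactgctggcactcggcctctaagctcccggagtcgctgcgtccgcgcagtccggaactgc
Ccnb2, chr8:79981609-79981908, minus strand: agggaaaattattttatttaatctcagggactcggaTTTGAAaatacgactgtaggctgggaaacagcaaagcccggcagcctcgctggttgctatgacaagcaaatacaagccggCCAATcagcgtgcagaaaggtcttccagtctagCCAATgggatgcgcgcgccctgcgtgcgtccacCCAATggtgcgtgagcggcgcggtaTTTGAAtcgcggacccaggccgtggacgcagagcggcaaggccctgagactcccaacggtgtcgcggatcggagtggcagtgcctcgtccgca

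E2F letters were present in 8 of 11 G1 and S promoters (72.7%), in 1 of 15 G2 and M promoters (6.67%) and in 2.14% of the 33469 promoters in the RefSeq set. CHR letters were present in 10 of 15 G2 and M promoters (66.7%), in 1 of 11 G1 and S promoters (9.09%) and in 18.3% of the set. CCAAT was present in 80.0% of G2 and M promoters, in 63.6% of G1 and S promoters and in 37.5% of the set. Among the called genes, Mcm2, Mcm5 and Mcm7 held E2F letters, and Mcm2 also held TTTGAA at 2 places. Cdk1, the G2 and M gene that was called, was the one promoter of its phase with E2F letters, which stood at positions -133 to -126 from the start site, beside 2 CHR matches. Pcna held CCAAT and neither of the other elements in this window. A match is a stretch of letters and does not show that a factor was bound.

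Pcna encodes the sliding clamp that holds DNA polymerase on the template (chromosome 3, 120008715 to 120012673 in the table's own coordinates, as for the other rows below, with the build unstated). It read 11.65, 11.63 and 11.51 in controls 1 to 3 and 11.96, 12.01 and 11.95 in the retinoic acid pools. The lowest retinoic acid pool lay clearly above the highest control. Group means were 11.59 ± 0.075 (SD, n = 3) in controls and 11.97 ± 0.032 (SD, n = 3) in retinoic acid, and Pcna rose 1.30-fold (log2 difference 0.38 ± 0.068 SE, adjusted p = 0.0017). Pcna was called with each of the 6 samples left out in turn (adjusted p 0.0036 to 0.012). After quantile normalization it was still called (0.26, adjusted p = 0.013), and after cyclic loess it was not (0.13, adjusted p = 0.20).

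The MCM proteins form the ring helicase that unwinds DNA at the fork, and Mcm2 to Mcm7 are its 6 subunits. Mcm7 (chromosome 12, 17607250 to 17615101) read 10.46, 10.51 and 10.44 in controls and 10.72, 10.79 and 10.72 in retinoic acid (0.27 ± 0.066 SE, adjusted p = 0.013). Mcm5 (chromosome 19, 13978924 to 14001089) read 10.17, 10.23 and 10.14 in controls and 10.44, 10.48 and 10.40 in retinoic acid (0.26 ± 0.067 SE, adjusted p = 0.017). Mcm2 (chromosome 4, 122977522 to 122991934) read 10.71, 10.69 and 10.64 in controls and 10.90, 10.98 and 10.92 in retinoic acid (0.25 ± 0.066 SE, adjusted p = 0.022). In each of these 3 genes the groups did not overlap, and the folds were close, from 1.19 to 1.21. Groups also did not overlap in Mcm4 (0.20 ± 0.072 SE, adjusted p = 0.092) and Mcm6 (0.18 ± 0.073 SE, adjusted p = 0.14), while in Mcm3 they did (0.10 ± 0.069 SE, adjusted p = 0.43). Mcm2, Mcm5 and Mcm7 each lost their call without control 3 (adjusted p = 0.077, 0.069 and 0.052), without control 1 (0.056, 0.069 and 0.053) and after quantile normalization (0.37, 0.23 and 0.24). Mcm2 and Mcm5 also lost it without retinoic acid 2 (0.065 and 0.052), and Mcm2 without control 2 (0.057). With 1 sample left out the differences themselves stayed at 0.23 to 0.27 for Mcm2, 0.24 to 0.29 for Mcm5 and 0.25 to 0.29 for Mcm7.

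Of the helicase genes, Mcm3 and Mcm4 each had another row in the table whose call differed from that of the row kept. The other row of Mcm3 (chromosome X_random, 399376 to 418451) went from 9.59, 9.70 and 9.66 to 10.00, 10.13 and 9.96 and was called (0.38 ± 0.071 SE, adjusted p = 0.0022). For Mcm4 the other row (chromosome 2, 146614282 to 146616864) went from 10.10, 10.10 and 10.02 to 10.30, 10.41 and 10.42 and was called (0.31 ± 0.068 SE, adjusted p = 0.0076). Which transcript each row reads was not tested, so the size of the difference in Mcm3 and Mcm4 depends on the row. With the mean of the rows of a symbol, 8 cell cycle genes were called higher, among them Mcm3, Mcm4 and Ccnb2, and Rrm2 was not.

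Of the genes listed that load or activate the helicase, Cdt1 and Gins1 were not called. Cdt1, which brings MCM to the origin, read 8.29, 8.29 and 8.31 in controls and 8.41, 8.33 and 8.40 in retinoic acid, without overlap but with a small difference (0.08, 95% confidence interval -0.05 to 0.22, adjusted p = 0.52). Gins1, a subunit of the GINS complex that joins MCM in the active helicase, read 8.55, 8.47 and 8.52 in controls and 8.74, 8.79 and 8.55 in retinoic acid (0.18, 0.02 to 0.34, adjusted p = 0.16). Its groups overlapped through retinoic acid 3.

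Of the enzymes that supply deoxynucleotides, 1 of 2 measured rose. Rrm2, the small subunit of ribonucleotide reductase (chromosome 6, 42350541 to 42355429), read 11.44, 11.60 and 11.32 in controls and 11.70, 11.72 and 11.73 in retinoic acid. The retinoic acid pools were nearly equal and the controls were spread, and the call (0.26 ± 0.075 SE, adjusted p = 0.038) was kept without control 2 and lost when any other sample was left out (adjusted p 0.078 to 0.17). In the authors' deposited table, which adjusts over more rows, Rrm2 had an adjusted p of 0.062. The other 2 rows of Rrm2 were at 0.23 and -0.09 and were not called. Tyms, thymidylate synthase, read 10.19, 10.20 and 10.00 in controls and 10.31, 10.24 and 10.24 in retinoic acid (0.14, -0.02 to 0.29, adjusted p = 0.29).

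Of the genes that control entry into S phase, none of 5 was called in limma (at an unadjusted p under 0.05, Ccne1 was higher and Ccnd1 lower). Ccnd1, the D-type cyclin that answers growth signals in G1 (chromosome 1, 205357235 to 205366810), read 8.13, 8.21 and 8.24 in controls and 8.16, 7.97 and 7.93 in retinoic acid. Retinoic acid 1 lay among the controls and the other retinoic acid pools below them (-0.17, 95% confidence interval -0.33 to -0.02, adjusted p = 0.18). Ccne1, a cyclin E gene, was higher without overlap (9.99, 10.00 and 9.91 against 10.10, 10.25 and 10.12, difference 0.19 ± 0.070 SE, adjusted p = 0.11), and Ccne2 was at 0.10 (adjusted p = 0.46). Their partner kinase Cdk2 was at -0.02 (-0.16 to 0.12, adjusted p = 0.92), and the activator E2f1 at 0.05 (-0.10 to 0.20, adjusted p = 0.78).

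**Figure D1:**
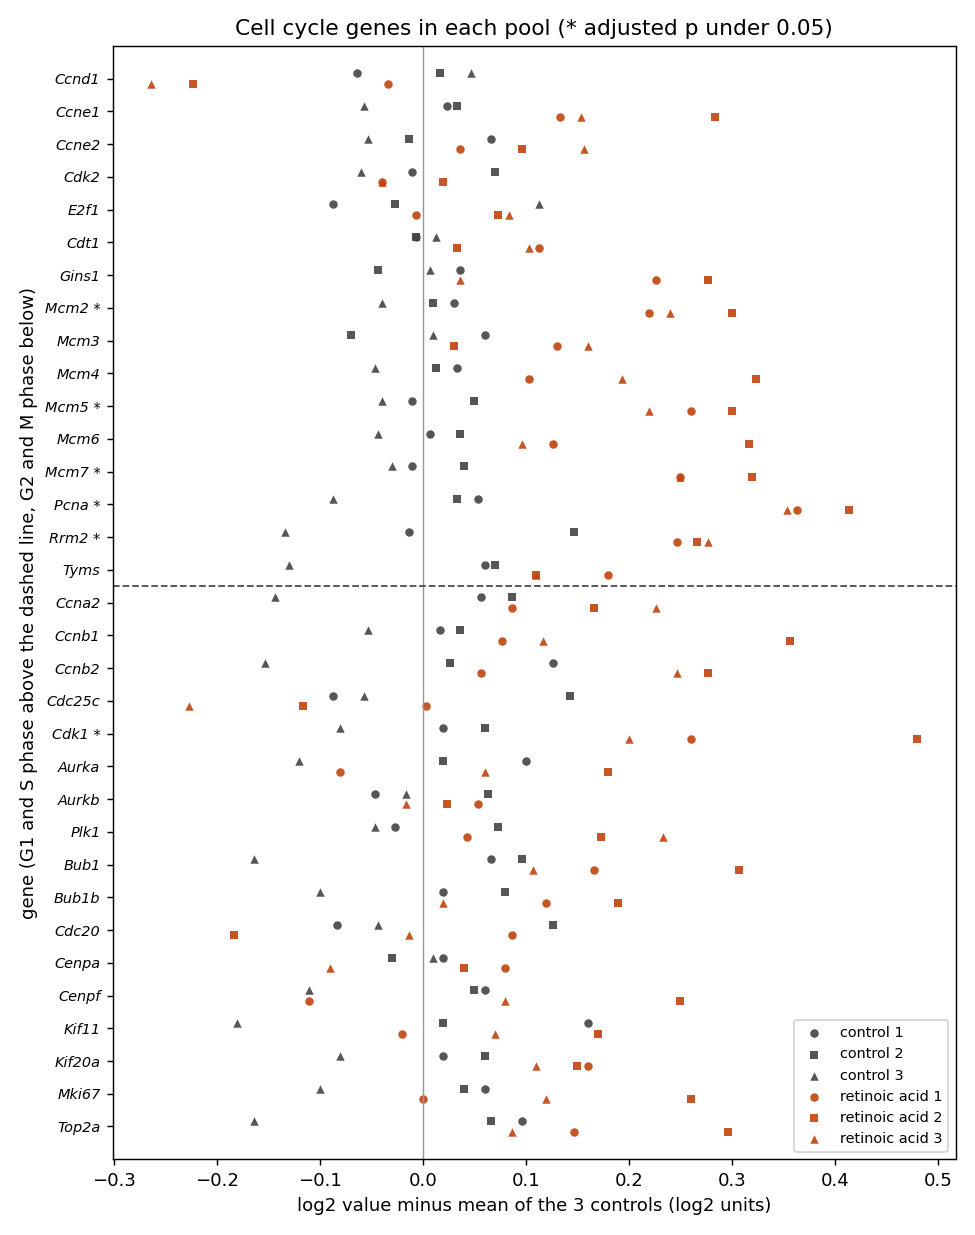
Log2 value of each cell cycle gene minus the mean of its 3 controls (horizontal axis) for the 6 pools, control in grey and retinoic acid in orange, with a symbol for each replicate number and an asterisk on genes with an adjusted p under 0.05. The retinoic acid pools of Pcna lie to the right of all 3 of its controls, while those of Cdc20 and Cdc25c lie among their controls or to the left of them.

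Among the genes of mitotic entry, Cdk1, the kinase that drives cells into mitosis (chromosome 20, 20018044 to 20044030), rose. It read 9.56, 9.60 and 9.46 in controls and 9.80, 10.02 and 9.74 in retinoic acid, without overlap and highest in retinoic acid 2. Group means were 9.54 ± 0.071 (SD, n = 3) in controls and 9.85 ± 0.15 (SD, n = 3) in retinoic acid, and Cdk1 rose 1.24-fold (0.31 ± 0.079 SE, adjusted p = 0.017). Leaving out control 3 (adjusted p = 0.081) or retinoic acid 2 (adjusted p = 0.079) ended the call, which was also lost after cyclic loess (0.19, adjusted p = 0.069), but held after quantile normalization (0.21, adjusted p = 0.045).

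The cyclins that bind Cdk1 were not called. Ccnb1 (11.18, 11.20 and 11.11 against 11.24, 11.52 and 11.28) was at 0.18 (adjusted p = 0.17) and Ccna2, the cyclin of S phase and G2 (10.92, 10.95 and 10.72 against 10.95, 11.03 and 11.09), at 0.16 (adjusted p = 0.22). In both, the lowest retinoic acid pool lay just above the highest control, but both were at 0.00 after quantile normalization and at -0.03 after cyclic loess. Ccnb2 (10.56, 10.46 and 10.28 against 10.49, 10.71 and 10.68) was at 0.20 (adjusted p = 0.16) with overlap, whereas a shorter row of Ccnb2 on chromosome 1 (20585314 to 20586815) was called (0.41 ± 0.080 SE, adjusted p = 0.0028). Cdc25c, the phosphatase that activates Cdk1, was at -0.11 (-0.28 to 0.06, adjusted p = 0.48).

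Of the mitotic kinases, motors, kinetochore, checkpoint and chromosome genes, none of 12 was called (2, Bub1 and Top2a, were higher at an unadjusted p under 0.05). Plk1, a kinase of spindle assembly, was at 0.15 (adjusted p = 0.23), Aurka of the spindle poles at 0.06 (adjusted p = 0.76) and Aurkb of the centromere at 0.02 (-0.12 to 0.16, adjusted p = 0.91). Of the spindle motors, Kif20a was at 0.14 (adjusted p = 0.25) without overlap and Kif11 at 0.07 (adjusted p = 0.70). Cenpa, the histone H3 variant of centromeres, was at 0.01 (-0.14 to 0.15, adjusted p = 0.97) and Cenpf, of the outer kinetochore, at 0.07 (adjusted p = 0.71). Among the checkpoint genes Bub1 was at 0.19 (adjusted p = 0.16) without overlap and Bub1b at 0.11 (adjusted p = 0.45). Cdc20, the activator of the anaphase-promoting complex, read 11.31, 11.52 and 11.35 in controls and 11.48, 11.21 and 11.38 in retinoic acid (-0.04, -0.21 to 0.13, adjusted p = 0.86). The proliferation marker Mki67 (11.60, 11.58 and 11.44 against 11.54, 11.80 and 11.66) was at 0.13 (-0.04 to 0.29, adjusted p = 0.38), but at -0.05 after quantile normalization, -0.11 after cyclic loess and 0.01 without control 3 and retinoic acid 2. Top2a, which untangles chromosomes, was at 0.18 (0.01 to 0.35, adjusted p = 0.21).

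Between the phases, 5 of 16 G1 and S genes (31.2%) and 1 of 17 G2 and M genes (5.88%) rose, a difference that was not tested. Of all tested rows 7.69% were called higher, and 16.1% of those in the level range of these genes. These counts depend on the row kept. With the mean of the rows of a symbol, Mcm3, Mcm4 and Ccnb2 were also called and Rrm2 was not. The median log2 difference was 0.18 over the G1 and S genes and 0.13 over the G2 and M genes, against 0.03 over all tested rows. For other rows of equal mean level, as defined below, the median value was 0.15 for the G1 and S genes and 0.13 for the G2 and M genes. In each pool the median of the G1 and S genes relative to the control means was 0.01, 0.03 and -0.04 in controls and 0.13, 0.27 and 0.15 in retinoic acid. For the G2 and M genes it was 0.02, 0.06 and -0.10 in controls and 0.08, 0.19 and 0.09 in retinoic acid. The first median minus the second was -0.01, -0.03 and 0.06 in controls and 0.06, 0.08 and 0.06 in retinoic acid, so control 3 lay with the retinoic acid pools. The gap between the phases was 0.05, against a spread of 0.037 between samples of a group (SD), and no test of that gap was made. With 1 sample left out the gap lay between 0.02 (without retinoic acid 1) and 0.09 (without control 3). The G2 and M median was 0.07 without control 3 and 0.07 without retinoic acid 2.

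Differences across the array grew with the level of the row. Over all tested rows the median difference was 0.00 for mean levels from 6 to 7, 0.08 from 9 to 9.5, 0.21 from 11 to 11.5 and 0.28 from 11.5 to 12. For each cell cycle gene the other rows within 0.25 log2 units of its mean level served as the comparison. Over the 33 genes the median difference was 0.14 and the median of those equal-level values was 0.15, with 18 genes above their own value (11 of 16 of G1 and S, 7 of 17 of G2 and M). Every retinoic acid pool lay above every control in 15 of 33 genes (45.5%), against 19.0% of tested rows and 34.1% of rows in the same range of level. In 0 genes did every retinoic acid pool lie below every control, against 6.95% and 7.14%. Over all rows in that range the median difference was 0.08, below the 0.15 of rows matched in level, so the range is a loose comparison.

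In the rows kept, 29 intervals held their equal-level median, 1 lay above it and 3 lay below. The share of all tested rows whose interval misses its own equal-level median was not counted. The genes named here were therefore not shown to be unusual. The 95% confidence interval of Cdk1 (0.15 to 0.48) lay above its equal-level median of 0.12, and 90.3% of those rows had a smaller difference. For Pcna the interval (0.24 to 0.52) held its equal-level median of 0.28, as those of Mcm2, Mcm5 and Mcm7 held theirs (0.17, 0.15 and 0.17). Rrm2 was at 0.26 beside an equal-level median of 0.25. The intervals of Ccnd1, Cdk2 and Cdc20 lay below their equal-level medians of 0.03, 0.15 and 0.22. Cdc20 was lower in difference than nearly all of its like, with 2.40% of the rows of equal level below it. These values are for the rows kept. For the other rows of Mcm3, Mcm4 and Ccnb2 the intervals lay above their equal-level medians of 0.13, 0.15 and 0.13. They were 0.23 to 0.53, 0.16 to 0.45 and 0.25 to 0.58. In the other rows of Rrm2 the interval held its equal-level median.

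**Figure D2:**
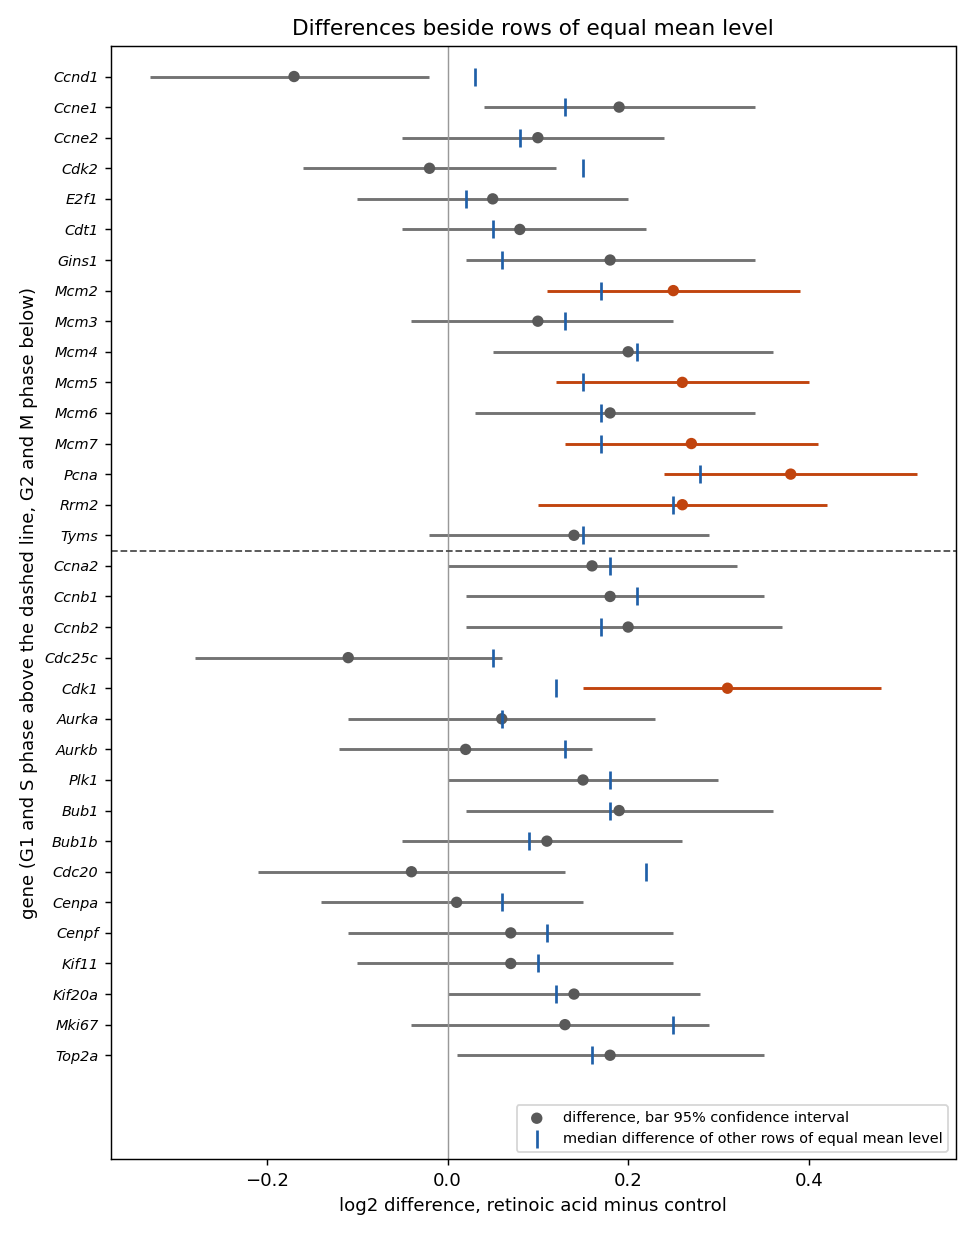
Log2 difference of each gene, retinoic acid minus control, as points with bars for the 95% confidence interval (orange for an adjusted p under 0.05), and the median difference of other rows of equal mean level as blue ticks. For 29 of 33 genes the bar of the row kept holds the tick. Cdk1 lies above it, and Ccnd1, Cdk2 and Cdc20 lie below. The same share over all tested rows was not counted.

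**Figure D3:**
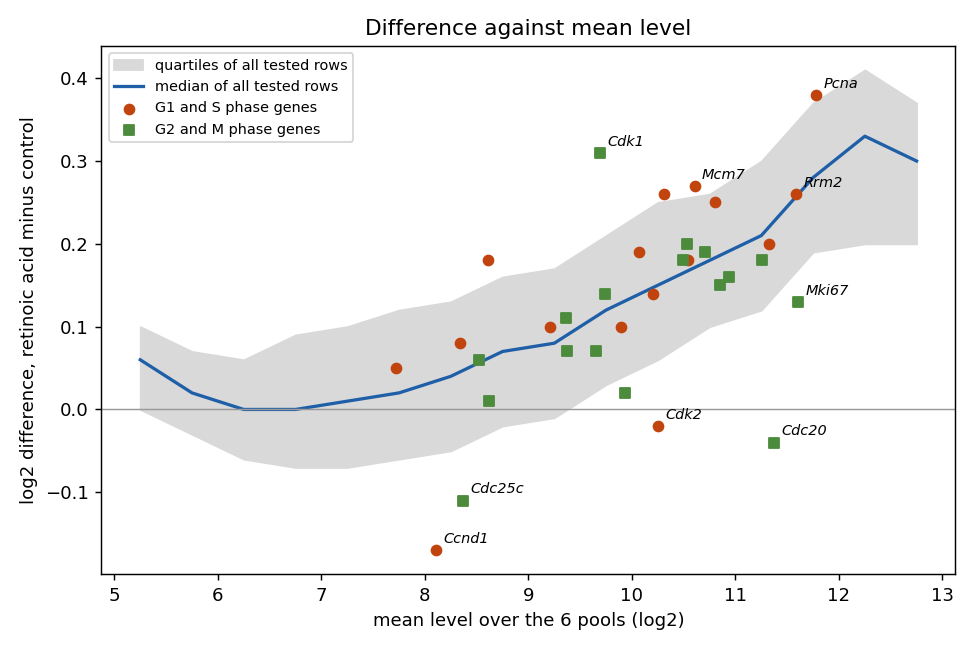
Mean level over the 6 pools (horizontal, log2) against the log2 difference (vertical) for G1 and S genes (circles) and G2 and M genes (squares), with the median of all tested rows as a line and their quartiles as a grey band, in bins of 0.5. The line climbs from 0.00 to 0.28 between levels of 6 and 12, with Cdk1 above it and Ccnd1 and Cdc20 below.

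Samples of both groups differed in the spread of their values. The SD over rows was lowest in control 3 (1.54) and highest in retinoic acid 2 (1.67), and 1.59 to 1.62 in the others. Control 3 was the lowest control in 24 of 33 cell cycle genes and retinoic acid 2 the highest retinoic acid pool in 19. Without control 3 only Pcna was called, without retinoic acid 2 only Pcna and Mcm7, and without control 1 only Pcna and Cdk1. Without both control 3 and retinoic acid 2, 1 gene was called (Pcna, 0.32, adjusted p = 0.029), the median difference of the cell cycle genes was 0.08, and that of the G2 and M genes was 0.02. The part of this spread in the differences was not tested.

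The size of the group values differed with the scaling of the samples. The median over the G1 and S genes was 0.04 after quantile normalization and 0.03 after cyclic loess, and the median over the G2 and M genes was 0.00 and -0.03, so its direction was not kept under cyclic loess. Of the G2 and M genes 15 of 17 were above 0 in the deposited values, and 7 after either normalization. Of the G1 and S genes 14 of 16 were above 0, then 13 after quantile normalization and 11 after cyclic loess. Quantile normalization left 2 calls, Pcna and Cdk1 (5.30% of all rows were called higher), and cyclic loess left 0 (4.33% of rows, with Cdk1 at an adjusted p of 0.069). Median centring left 5 calls, without Rrm2 (5.90% of rows). When samples were shifted by the 10 spike-in rows of nominal ratio 1, the medians were 0.31 and 0.25 with 0 calls, and the median of all rows moved from 0.03 to 0.16. Those shifts spread widely within the controls (0.28, 0.485 and -0.529) beside a difference of -0.125 between the group means, so these medians are imprecise.

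**Figure D4:**
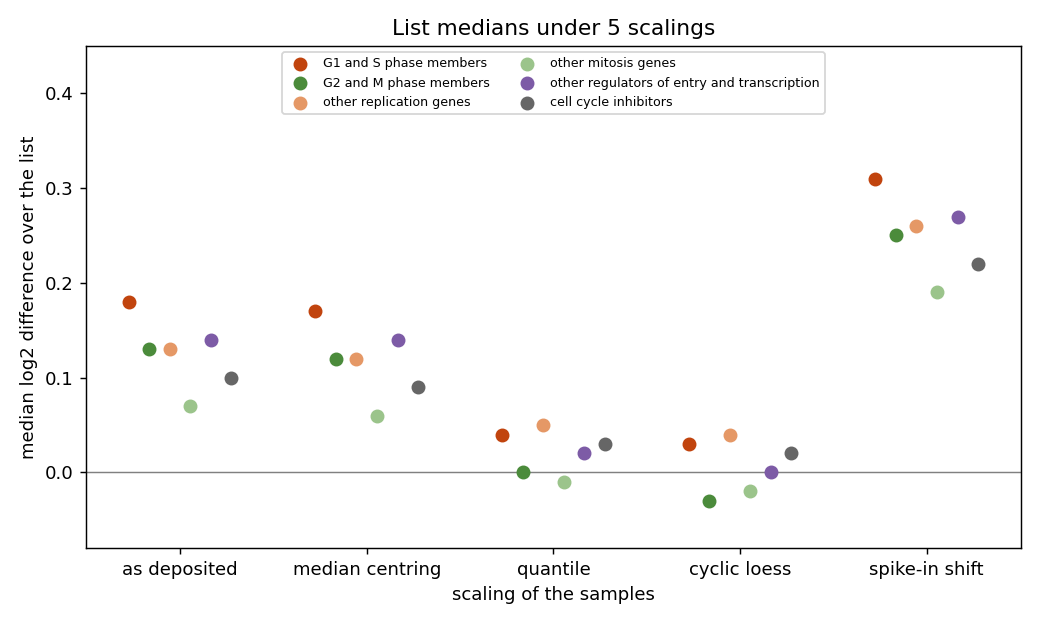
Median log2 difference over 6 gene lists (vertical) under 5 scalings of the samples (horizontal), with 1 point for each list. In the deposited values the G1 and S genes are at 0.18 and the G2 and M genes at 0.13, and after cyclic loess they are at 0.03 and -0.03.

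Among other genes of DNA replication Prim1 differed most. Of 51 measured, 12 rose (23.5%) and 0 fell in limma (1 was lower at an unadjusted p under 0.05). Their median was 0.13 beside 0.07 for rows of equal level. For this list and those below, the share called higher was 7.69% over all tested rows. It was 16.1% over rows in the level range of the cell cycle genes. Prim1, the primase subunit that starts each new strand, read 11.05, 10.92 and 10.75 in controls and 11.50, 11.71 and 11.65 in retinoic acid, a 1.64-fold rise (0.71 ± 0.082 SE, adjusted p = 3.5e-05). Its equal-level median was 0.21, and 99.5% of those rows had a smaller difference. Pold1, the catalytic subunit of polymerase delta (0.36), Rfc4 of the clamp loader (0.39), the single-strand binding subunit Rpa3 (0.31), the licensing inhibitor Gmnn (0.33) and the origin subunit Orc6 (0.30) also rose, with adjusted p from 0.0043 to 0.010. After quantile normalization 8 of the 51 genes were called higher and 1 lower with a median of 0.05, and after cyclic loess 7 and 1 with a median of 0.04.

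Of 58 other genes of mitosis measured, 2 rose (3.45%) and 2 fell, with a median of 0.07 beside 0.09 for rows of equal level. Fam64a (0.29, adjusted p = 0.014) and the spindle gene Nusap1 (0.27, adjusted p = 0.036) rose. The kinetochore gene Cenpt (-0.23, adjusted p = 0.042) and Cep55, which acts when daughter cells separate (-0.23, adjusted p = 0.048), fell. After quantile normalization or cyclic loess 0 were called higher and 4 lower, and the median was -0.01 and -0.02, a turned direction. The difference between the replication and mitosis lists was not tested.

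Among 25 other regulators of entry and transcription 5 rose and 0 fell in limma (1 was lower at an unadjusted p under 0.05). Ccnd2, a D-type cyclin like Ccnd1, read 12.32, 12.45 and 12.32 in controls and 12.86, 13.01 and 12.99 in retinoic acid, a rise of 0.59 on the log2 scale (± 0.071 SE, adjusted p = 5.6e-05), while Ccnd1 was at -0.17. Cdk4, the kinase of both cyclins (0.30, adjusted p = 0.015), Myc (0.36, adjusted p = 0.0032), the early mitotic inhibitor Fbxo5 (0.32, adjusted p = 0.0088) and the B-Myb gene Mybl2 (0.24, adjusted p = 0.033) rose. The equal-level median was 0.29 for Cdk4, near its own difference, and 0.29 for Ccnd2. For Myc, Fbxo5 and Mybl2 it was 0.05, 0.13 and 0.11. The difference between Ccnd2 and Ccnd1 was not tested. The median of the 25 was 0.14 beside 0.09 for rows of equal level. After quantile normalization 3 were called higher with a median of 0.02, and after cyclic loess 2 with a median of 0.00.

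Of 25 measured genes that slow the cycle, 4 rose (16.0%) and 1 fell, with a median of 0.10 beside 0.05 for rows of equal level. Btg2, an antiproliferative gene of neural progenitors, went from 8.79, 8.68 and 8.64 to 9.52, 9.72 and 9.53 (1.85-fold, adjusted p = 2e-06). Gadd45a (0.39), the Cdk4 and Cdk6 inhibitor Cdkn2c (0.24) and the phosphatase gene Cdkn3 (0.23) rose, and Gadd45b, which is known as a stress-induced gene like Gadd45a, fell (-0.25, adjusted p = 0.027). The counts were 4 and 1 after quantile normalization and after cyclic loess, 2 and 1 after median centring, and 0 and 0 after the spike-in shift. The median was 0.03 after quantile normalization and 0.02 after cyclic loess.

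Markers of other cell types differed between the same pools. Over all tested rows, 7.69% were called higher and 2.06% lower. Of 8 neural progenitor markers 4 rose, led by Sox2 (0.83) and Pax6 (0.42), and the median of all 8 relative to the control means lay at -0.02 to 0.05 in controls and 0.15 to 0.28 in retinoic acid. Above their equal-level median were 4 of the 8. The median difference of 0.19 was 0.07 after quantile normalization and 0.01 after cyclic loess. The sum of unlogged values of these 8 was 8488 to 9535 and 10220 to 11449, and its brightest row was Vim (means of 12.57 and 12.85), whose difference of 0.27 stood beside 0.29 for rows of equal level. The mean level of Nes, a defining progenitor marker, was near the median of all rows (6.66 to 6.83). Of 6 endothelial markers 5 fell, led by Cdh5 (-0.78) and Cd34 (-0.67), with sums of 2784 to 2971 and 1773 to 2030. Of 10 mesoderm markers 3 rose and 3 fell, with Meox1 (0.93) and T (-0.77) the clearest and sums of 4518 to 4869 and 4000 to 4263. Of 7 cardiac markers 6 rose, led by Myl7 (1.82) and Actc1 (1.47), with sums of 786 to 814 and 1528 to 1584. Of 7 erythroid markers 3 rose, led by Hbe2 (0.40) and Hbe1 (0.38), with sums of 21406 to 24388 and 26136 to 28901. The brightest of these rows were Hbe1 and Hbz, at 0.38 and 0.17 beside 0.35 and 0.34 for rows of equal level. Of 10 neuronal markers Ina rose (0.57) and Isl1 fell (-0.40), with sums of 1450 to 1512 and 1420 to 1481. Control means were spread widely within each list. They ran from Hbb (6.12) to Hbe1 (13.58) for erythroid markers and from Meox2 (6.41) to Prrx1 (10.87) for mesoderm and mesenchyme. For endothelium they ran from Tie1 (7.69) to Cd34 (9.80). Progenitor markers ran from Nes (6.72) to Vim (12.57), with Pax6 at 7.46, Sox2 at 8.17 and Cdh2 at 10.65. These levels of different rows were not used to rank cell types. Whether the pools held cells of other types was not tested. An array value has no zero, so no marker can be called absent. The part of these markers in the cell cycle differences was not tested.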

How the data were processed

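RNA of 6 pools was biotin-labelled for Affymetrix arrays, per the labels' protocols. The authors deposited 1 table of log2 values with their own log2 fold changes, p-values and the t and B scores, per the file headers, and a value table that is identical to it. For array design, summarisation and build nothing is stated in the labels or headers; limma is named without a version, per the submitters' processing notes. Columns headed WT and RA were matched to samples through the identical value table.

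Of 29656 rows, 167 array controls and 9231 rows without a gene were left out. limma 3.58.1 in R 4.3.3 (lmFit, eBayes) compared retinoic acid with control, with no block. Tests were two-sided, and p-values were adjusted by Benjamini-Hochberg over 20258 rows. With arrays, the number of samples limits the precision. The p-values set a difference against the spread between these pools, which may be partly technical. They do not cover the spread between single embryos or dams. The script was tested on simulated data. The members, phases and other lists were chosen with earlier results of these data known. All members are named; from each other list at most 6 called genes by smallest p, and at most 2 called markers per list, were to be named, and Nes was added after its values were seen. Figures used matplotlib 3.10.9 in Python 3.11.15. The spike-ins of nominal ratio 1 came from general knowledge of the product.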

Additional observations from a re-analysis of the deposited data

How the results depend on the processing

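The count of cell cycle genes called higher was 6 and that called lower 0. With 1 sample left out the count called higher ranged from 1 to 5, lowest without control 3. It was 2 after quantile normalization, 0 after cyclic loess, 0 after the spike-in shift and 1 with control 3 and retinoic acid 2 both left out, a setting chosen after seeing the data. The median of all these genes (0.14) was 0.02 after quantile normalization, 0.01 after cyclic loess, 0.26 after the spike-in shift and 0.08 without both samples. The G1 and S median (0.18) was 0.04, 0.03, 0.31 and 0.12 under these settings, the G2 and M median (0.13) was 0.00, -0.03, 0.25 and 0.02, and their gap (0.05) was 0.10 without both samples. Under trend and robust moderation, array weights, median centring, all rows, rows above the median level, the mean of rows, the second row of a gene (chosen after seeing the data), the value table and the authors' statistics, the count lay between 5 and 8. Over all rows, 1558 were called higher and 417 lower, against 1073 and 651 after quantile normalization and 877 and 710 after cyclic loess. The causes of these shifts were not tested.

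Replicate numbers were shared between the groups, and with the replicate number as a block 6 cell cycle genes were called higher and 0 lower. Deviations of same-numbered samples from their group means correlated at -0.110, 0.235 and 0.235 across rows. Control 1 correlated best with retinoic acid 2 (0.184), while controls 2 and 3 correlated best with the retinoic acid samples of their own number. With 3 samples in a group, these values cannot show whether the numbers pair the samples.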
